A study of Mus musculus with 19 samples.

Results

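Of 2943 genomic regions bound by the transcription factor SOX9 in mouse glial progenitor cells, 1052 (35.7%) lay between 1 and 100 kb from the transcription start of their assigned gene and shared no base with a called peak of SOX3 or NFIA. They were selected on measured values, namely the authors' peak calls, the signed distance in the authors' SOX9 list (absolute distance above 1000 bp and at most 100000 bp) and the positions of the SOX3 and NFIA peaks. They made up 59.8% of the 1758 SOX9 peaks in that distance range, and they were paired with 923 different genes. Numbers, distances and overlaps of these peaks are therefore a description. The rule itself used no RNA level. A missing SOX3 or NFIA peak means only that none was called, and weaker binding there was not tested.

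The study profiled binding of SOX3, SOX9 and NFIA by chromatin immunoprecipitation and sequencing (ChIP-seq) in glial progenitor cells (GPC), and RNA in GPC and in glia, both obtained from mouse embryonic stem cells (ESC). The series asks how SOX factors acting one after another set gene expression in astrocytes and oligodendrocytes. The peak lists came from 3 SOX9 samples (a Millipore antibody), 2 SOX3 samples (an antibody of the Muhr laboratory) and 2 NFIA samples (a Sigma antibody), with 1 list per factor, so replicates of binding could not be compared. RNA was available from 4 GPC and 3 glia libraries. For both groups the labels describe ESC kept without feeders, differentiation in N2B27 medium with 0.1 µM all-trans retinoic acid on fibronectin, magnetic sorting for the surface antigen A2B5 at day 8, and growth with EGF and FGF2 at 10 ng/ml. The labels name no strain or genetic change, and they do not say what was done to turn progenitors into glia, which ESC line was used or whether the numbered libraries were grown separately. The p-values therefore reflect only how much these libraries vary, and that variation may be technical.

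SOX9 is a DNA-binding factor of the SOX family, which recognises short AT-rich sites and bends the DNA. In the developing central nervous system it marks the switch of neural stem cells from making neurons to making glia, and it is kept in astrocytes. NFIA, a nuclear factor I protein, is induced downstream of SOX9 and acts with it on astrocyte genes, while SOX3 belongs to the SOX group of neural stem cells. Bound regions away from the start of a gene are often enhancers, and the assigned gene need not be the one that such a region regulates.

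Counted reads ranged from 12836998 to 22439837 in GPC and from 6897294 to 17369367 in glia. GPC replicate 3, the deepest library, stood apart from the other GPC libraries on the second principal component (4.5% of the variance). On the first component (90.4%) it lay at -46.8, the other GPC libraries at -64.8 to -63.1 and glia at 79.1 to 80.4. It was thus the GPC library nearest to glia on the component that separates the groups. Calls that it changes, with some of the values that it moves, are also given without it. The labelled cell types were checked against marker lists by summed level, in RPKM, the read count scaled to gene length and library size. Astrocyte markers summed to 2522 to 2908 RPKM in GPC libraries and to 10927 to 13304 RPKM in glia libraries, with 20 of 29 higher and 6 lower in glia. Markers of maturing oligodendrocytes went from 191 to 235 RPKM in GPC to 2184 to 3041 RPKM in glia, and progenitor markers from 7449 to 7930 RPKM down to 3550 to 3607 RPKM. Mesenchyme markers summed to 211 to 220 RPKM in GPC, against 821 to 1003 RPKM in glia, and 8 of 9 microglia markers stayed under 1 RPKM in every library. In bulk RNA a smaller share of cells of a type and less RNA per cell cannot be told apart. The part of these other cell types in the differences below was not tested.

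Promoters of 3 of the paired genes are shown as the 250 bases before the start that RefSeq lists (GRCm38.p6). The peak positions and the authors' distances are in mm9, for which no sequence was used here, and whether the distances count from these starts was not tested. Gfap (chr11:102897201-102897450, minus strand), the intermediate filament gene of astrocytes, and Ndrg2 (chr14:51914005-51914254, minus strand, the outermost of 3 listed starts), a gene abundant in astrocytes, are shown because both rose in glia and had the SOX9 peak closest to the start among the astrocyte genes described below. Crb1 (chr1:139377077-139377326, minus strand), a cell polarity gene with 3 peaks, is shown as an example with matches and was chosen after they were seen. Capitals mark AACAAT or ACAAAG, short forms of the SOX site, searched on both strands (ATTGTT and CTTTGT).
Gfap: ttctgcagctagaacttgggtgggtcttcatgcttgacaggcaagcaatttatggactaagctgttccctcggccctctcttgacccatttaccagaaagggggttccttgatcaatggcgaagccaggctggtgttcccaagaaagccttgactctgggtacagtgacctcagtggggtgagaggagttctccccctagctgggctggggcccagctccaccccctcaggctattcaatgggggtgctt
Ndrg2: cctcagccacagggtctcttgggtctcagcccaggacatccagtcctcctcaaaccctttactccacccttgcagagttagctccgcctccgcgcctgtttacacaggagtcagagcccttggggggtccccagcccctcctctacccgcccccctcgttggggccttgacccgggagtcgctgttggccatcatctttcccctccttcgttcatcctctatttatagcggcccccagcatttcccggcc
Crb1: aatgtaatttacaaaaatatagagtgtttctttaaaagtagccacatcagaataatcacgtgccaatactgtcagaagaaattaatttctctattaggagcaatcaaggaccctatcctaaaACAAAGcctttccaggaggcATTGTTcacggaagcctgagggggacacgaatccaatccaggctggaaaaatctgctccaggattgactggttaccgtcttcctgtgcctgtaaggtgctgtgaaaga
Neither the Gfap nor the Ndrg2 window held these letters, while that of Crb1 held both forms. One or both forms were found in 20.2% of 853 promoters of 659 of the paired genes and in 24.0% of all 32851 promoters of this length in that table. The windows are promoters and not the SOX9-only peaks, which lay more than 1000 bp from the assigned start. The letters inside the peaks were not examined. A match or its absence is a description of the letters only and does not bear on binding in the peaks.

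The 1052 peaks were spread over the whole distance range. Their median absolute distance was 28454 bp, with quartiles at 12947 and 55204 bp, against a median of 23154 bp for the 706 SOX9 peaks of the same range that shared a base with a SOX3 or NFIA peak. Between 1 and 5 kb there were 95 peaks, between 5 and 10 kb 110, between 10 and 20 kb 188, between 20 and 50 kb 359 and between 50 and 100 kb 300. The share of SOX9 peaks that met no SOX3 or NFIA peak was 53.7% between 1 and 5 kb and 63.7% between 50 and 100 kb. More peaks lay downstream of the start than upstream, 624 (59.3%) against 428, and among the peaks shared with SOX3 or NFIA 54.5% lay downstream. By chromosome the members made up between 24.9% (chromosome 13, 58 of 233) and 44.2% (chromosome 5, 76 of 172) of the SOX9 peaks.

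**Figure D1:**
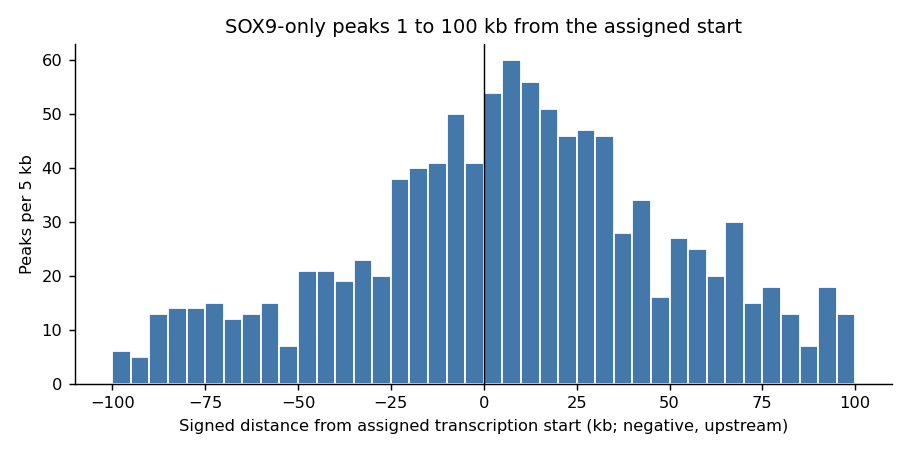
Number of SOX9-only peaks per 5 kb by signed distance from the assigned transcription start in kb, negative upstream. Bars are peak counts, and 624 of the 1052 peaks lie to the right of the start.

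Distance from the other factors' peaks varied widely. Among the 706 other SOX9 peaks of this range, 177 met SOX3 alone, 506 NFIA alone and 23 both. The SOX3 list held 1367 peaks with a median width of 167 bp, and the NFIA list 14164 with a median of 301 bp. The median gap to the nearest SOX3 peak was 566680 bp and to the nearest NFIA peak 57203 bp. Only 6 members had a SOX3 peak within 500 bp and 24 an NFIA peak. The member assigned to Rybp lay 3 bp from an NFIA peak and that of Cuedc1 4 bp, whereas 1 peak each of Gm8050 and Gm2244 shared 4 and 8 bp and was left out. At the lower distance limit a peak of Fam78b, which had another one among the members at 1193 bp, and the peak of Stxbp5 (both at 997 bp) fell just outside and 4930402H24Rik (1038 bp upstream) and Prl7c1 (1042 bp downstream) just inside. At the upper limit Zbtb16 (99678 bp) and Gadd45g (99490 bp) were inside and Arl4c (100079 bp upstream) and Ehf (100791 bp) outside.

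Most genes had a single peak. Of the 923 genes, 815 had 1, 89 had 2, 17 had 3 and 2 had 4 (Olig1 and Preb). Every SOX9 peak in the list was 601 bp wide and some overlapped one another, so 124 of the members fell into 59 runs of overlapping peaks and the members amounted to 987 separate loci. For 762 genes all SOX9 peaks were of this kind, while 74 also had a SOX9 peak at 1 to 100 kb shared with SOX3 or NFIA and 125 were also named in the SOX3 list.

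Olig1, a basic helix-loop-helix factor of the oligodendrocyte lineage, had peaks at 6167 bp upstream (chr16:91263547-91264147) and at 34518, 35507 and 36036 bp downstream, the last pair overlapping. The upstream peak was 201 bp from a SOX3 peak, and Olig1 had 1 further SOX9 peak that was shared. The level of Olig1 in GPC replicates 1 to 4 was 1166, 1111, 1049 and 1116 RPKM and in glia replicates 1 to 3 530.1, 393 and 564 RPKM. All glia libraries lay below all GPC libraries, a log2 change of -1.19 ± 0.12 (SE; adjusted p = 9.2e-06, two-sided quasi-likelihood test of edgeR with Benjamini-Hochberg adjustment). Preb, a regulator of transport from the endoplasmic reticulum, had 4 peaks within 3048 to 3819 bp that formed 1 run. Preb stood at 27.1 to 29.4 RPKM in GPC, against 25.3 to 28.5 RPKM in glia and was not called (adjusted p = 0.18, same test).

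Among genes with 3 peaks, Etv5, Abt1, Eid2 and 1700025G04Rik fell and Fam134b, Crb1, Ednrb and Abcb4 rose. Etv5, an ETS factor induced by FGF signalling, had peaks at 69365, 69556 and 89937 bp upstream (the first at chr16:22508858-22509458). Ednrb, the endothelin receptor B gene found in astrocytes and progenitors, had 3 peaks close together at 65252 to 66035 bp downstream and read 138, 152, 233 and 155 RPKM in GPC, against 362, 387 and 328 RPKM in glia. The groups of Ednrb did not overlap although GPC replicate 3 was the highest GPC library (log2 change 1.05 ± 0.17, adjusted p = 0.00052). Fam134b, an endoplasmic reticulum membrane gene, had separate peaks at 81217 bp upstream and at 50147 and 55894 bp downstream, and rose from 2.64 ± 0.310 (SD, n = 4) to 20.1 ± 1.24 RPKM (n = 3). Crb1 rose from 1.05 ± 0.281 to 6.18 ± 0.286 RPKM (log2 change 2.49 ± 0.17). The peaks of Abcb4, a phospholipid transporter gene, Eid2 and 1700025G04Rik each formed 1 run. Arhgef10l, a guanine nucleotide exchange factor gene, was not called with all libraries (log2 change 0.17, adjusted p = 0.095) but was without GPC replicate 3 (adjusted p = 0.049) and without glia replicate 2 (log2 change 0.25, adjusted p = 0.016).

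**Figure D2:**
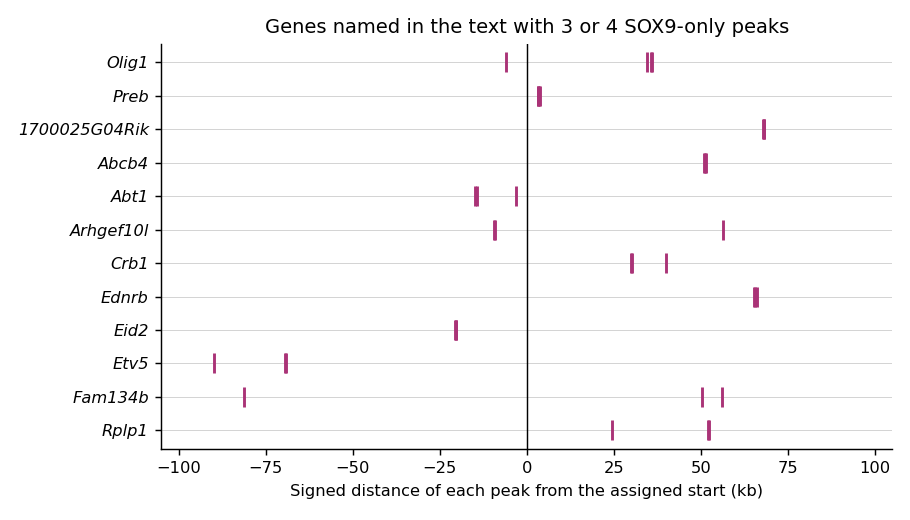
Signed distance in kb of each SOX9-only peak of the genes named in the text that have 3 or 4 such peaks, 1 line per gene and 1 tick per peak, with the start at 0. The peaks of Preb and Ednrb sit at 1 place, while those of Olig1, Fam134b and Arhgef10l are found on both sides of the start.

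Of the 923 genes, 864 were found in the expression table (837 directly, 27 through a synonym) and 59 were not, of which 45 carried provisional Gm or Rik names. Among these 864, 62 had no read in any library and 176 in all had too few reads for a test, which left 688, or 79.6% of those in the table against 59.2% of all 22958 genes. A gene passed this filter on low counts also through 1 group alone, and 18 of the 688 had fewer than 10 reads in every library of 1 group. In GPC, where binding was measured, the median level was 7.03 RPKM against 1.52 RPKM over all genes, and in glia 8.19 against 2.34 RPKM. In both groups 225 genes (26.0%) were under 1 RPKM, against 44.0% of all genes, and 31 reached 100 RPKM in GPC, against 41 in glia.

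Genes of SOX9-only peaks were called at about the rate of all genes. Of the 688 tested, 260 (37.8%) were higher and 250 (36.3%) lower in glia, where 35.2% of all 13588 tested genes were higher and 35.2% lower. Together 510 (74.1%) were called, against 70.4% of all genes, and in 501 (72.8%) the GPC and glia libraries did not overlap, against 69.5%. Without GPC replicate 3, 286 were higher and 268 lower. Changes of at least 2-fold were counted for 140 genes upward (20.3%, against 16.5%) and for 75 downward (10.9%, against 9.24%). The median log2 change was 0.03, against 0.00 over all tested genes, and the quartiles were -0.51 and 0.83 against -0.45 and 0.59. These shares are near the background, so no general direction of the paired genes can be read from them.

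**Figure D3:**
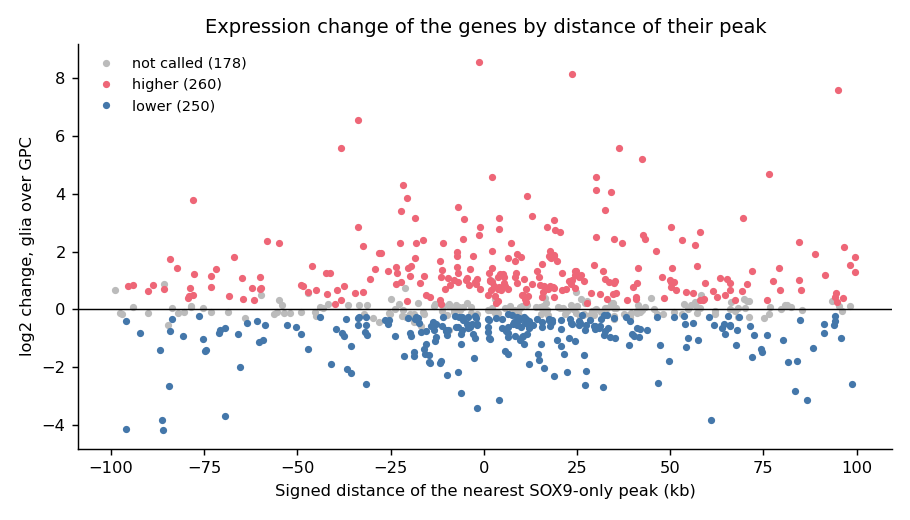
Fitted log2 change, glia over GPC, of the 688 tested genes against the signed distance in kb of their nearest SOX9-only peak. Each point is 1 gene, coloured by its call, and the 260 higher and 250 lower genes are spread over all distances.

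By distance of the nearest peak the calls were uneven without an order. With the peak between 1 and 5 kb, 32 of 66 tested genes were higher (48.5%) and 23 lower, with a median log2 change of 0.25. Between 5 and 10 kb 23 of 75 were higher and 31 lower, between 10 and 20 kb 50 and 57 of 129, between 20 and 50 kb 81 and 73 of 221, and between 50 and 100 kb 74 and 66 of 197. No test was made between these bins. With the nearest peak upstream 100 of 278 genes were higher and 107 lower, and with it downstream 160 and 143 of 410. Genes with 2 or more peaks gave 29 higher and 28 lower of 84 tested. Genes of the SOX9 peaks in this range that were shared with SOX3 or NFIA gave 149 higher (38.4%) and 133 lower of 388, at a median of 6.90 RPKM in GPC. Genes of SOX9-only peaks beyond 100 kb gave 126 higher and 107 lower of 324 at 4.80 RPKM, and those within 1 kb 52 and 60 of 153 at 11.1 RPKM. These classes share genes, and the differences between them were not tested.

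**Figure D4:**
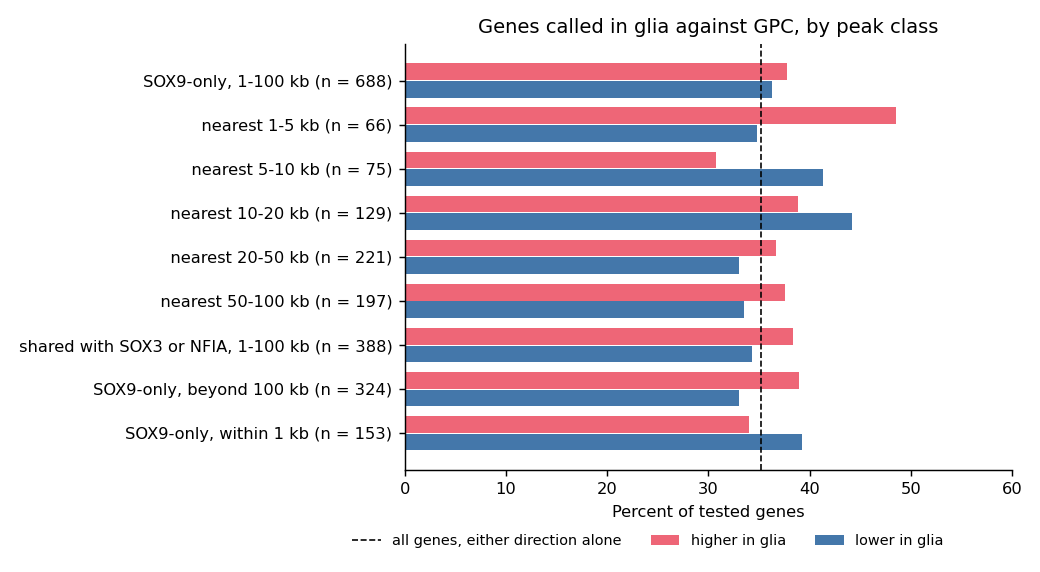
Percent of tested genes called higher or lower in glia for the SOX9-only peaks at 1 to 100 kb, for bins of their nearest peak and for the other classes of SOX9 peaks, with the number tested in each label. The dashed line is the share of all tested genes called in each direction alone, 35.2%, and 48.5% of the genes with a peak at 1 to 5 kb were higher.

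Among called genes with separate groups and a mean of at least 5 RPKM in 1 group, Gfap, Padi2, Bbox1 and Aqp4 were in the 12 with the largest rises. Gfap had its peak 1410 bp upstream of the start (chr11:102759555-102760155), 262112 bp from the nearest NFIA peak. Its level was 5.64, 5.92, 15.4 and 6.52 RPKM in GPC, against 3354, 2931 and 3490 RPKM in glia. Every glia library exceeded every GPC library, and GPC replicate 3 was the highest of the GPC libraries. The log2 change was 8.54 ± 0.44 (adjusted p = 1.5e-06) and 9.05 without GPC replicate 3. Padi2, a peptidylarginine deiminase gene with a peak 23546 bp downstream (chr4:140485505-140486105), read 0.562, 0.252, 1.05 and 0.493 RPKM in GPC, against 182, 186 and 181 RPKM in glia. All 3 glia libraries of Padi2 were thus close together and far above GPC (log2 change 8.13 ± 0.30, adjusted p = 1.2e-07). Aqp4, the water channel of astrocyte endfeet, had peaks 38426 bp upstream and 63513 bp downstream. It read 1.56, 2.18, 2.78 and 2.15 RPKM in GPC, against 107, 113 and 100.4 RPKM in glia (log2 change 5.57 ± 0.16, adjusted p = 5.7e-09).

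Of the matrix list, Thbs2 and Adamtsl1 were among these 12. Thbs2, a thrombospondin, had 2 overlapping peaks at 20499 and 20636 bp upstream and rose from 2.04 ± 0.122 to 30.4 ± 6.73 RPKM (log2 change 3.87 ± 0.14). Adamtsl1 rose from 1.52 ± 0.164 to 21.6 ± 3.07 RPKM. Itih5, whose product binds hyaluronan and which is not on that list, rose from 0.819 ± 0.115 to 14.0 ± 0.831 RPKM. Serpinf1, which encodes a secreted factor that inhibits vessel growth, had a peak 3956 bp downstream and rose by 3.17 ± 0.09 on the log2 scale. Sv2b, a synaptic vesicle protein gene, rose from 0.196 ± 0.0635 to 9.75 ± 0.240 RPKM, and 4930506M07Rik by 4.57 ± 0.19 on the log2 scale. Aldh1a1, a retinaldehyde dehydrogenase gene, read 1.77, 2.25, 12.7 and 1.82 RPKM in GPC, against 54.9 to 59.1 RPKM in glia. GPC replicate 3 stood far above the other GPC libraries for Aldh1a1, and the log2 change of 3.44 ± 0.65 (adjusted p = 0.0022) became 4.82 without it. Meig1, known from meiosis and sperm, likewise moved from 4.58 to 5.29 without GPC replicate 3, as its GPC libraries held 4, 5, 21 and 4 reads. Bbox1, the last enzyme of carnitine synthesis, stood at 8.42, 9.70 and 8.19 RPKM in glia and had 0, 0, 3 and 1 reads in GPC, too few for a fold change. Each of these genes was called higher by the same edgeR test. Bbox1 passed the filter on low counts through glia alone, so its call and its rank among the rises are no support.

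**Figure D5:**
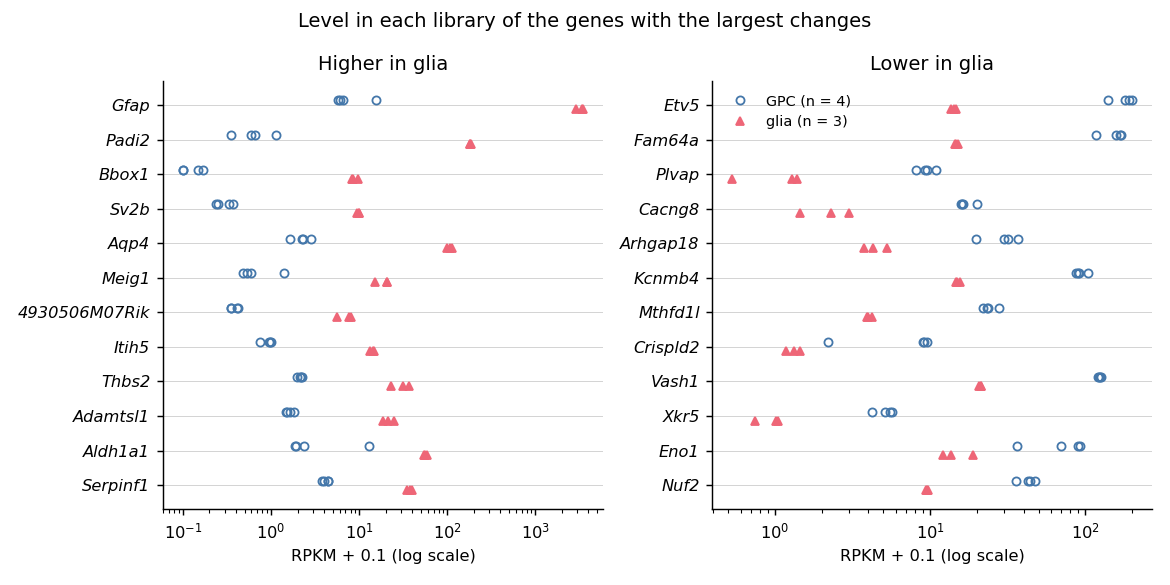
Level in each library of the 12 genes with the largest rise (left) and the 12 with the largest fall (right) among called genes with a mean of at least 5 RPKM in 1 group, as RPKM + 0.1 on a log axis, circles for 4 GPC and triangles for 3 glia libraries. The groups do not overlap for any of these genes, a condition of their choice, and 1 GPC circle of Gfap, Aldh1a1 and Crispld2, GPC replicate 3, lies away from the others.

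Under the same conditions Etv5, Fam64a and Plvap had the largest falls. Etv5 read 190.1, 201, 139.5 and 181 RPKM in GPC, against 14.6, 13.5 and 14.1 RPKM in glia. Every GPC library of Etv5 lay far above every glia library, and the log2 change was -3.68 ± 0.13 (adjusted p = 9.3e-09). Fam64a, a gene of dividing cells, had a peak 1884 bp upstream (chr11:71853773-71854373) and fell from 153 ± 24.5 to 14.6 ± 0.443 RPKM (log2 change -3.40 ± 0.14). Nuf2, a kinetochore gene, fell from 42.6 ± 4.86 to 9.50 ± 0.157 RPKM. Vash1, a tubulin carboxypeptidase gene with a peak 31580 bp upstream and 1711 bp from a SOX3 peak, read 121, 122, 124 and 126 RPKM in GPC, against 21.3, 20.6 and 21.03 RPKM in glia. Both groups of Vash1 were tight (log2 change -2.59 ± 0.06, adjusted p = 1.4e-09). Of the ion channel list, 2 genes were among these falls, with Kcnmb4, a subunit of calcium-activated potassium channels, at 93.1 ± 7.63 against 14.9 ± 0.458 RPKM and Cacng8, a regulator of AMPA receptors, at 17.0 ± 2.01 against 2.14 ± 0.774 RPKM. Plvap, an endothelial diaphragm protein gene, fell from 9.35 ± 1.20 to 0.965 ± 0.465 RPKM. Of 9 endothelial markers 6 were under 1 RPKM in every library, and of 4 tested 1 was higher and 2 were lower in glia. The 9 summed to 3.15 to 5.14 RPKM in GPC and to 2.66 to 4.12 RPKM in glia. Arhgap18, Mthfd1l and Xkr5 changed by -2.83, -2.63 and -2.54 on the log2 scale. Crispld2 read 8.87, 9.09, 2.09 and 9.46 RPKM in GPC, against 1.08 to 1.34 RPKM in glia, so GPC replicate 3 lay near glia (log2 change -2.61 ± 0.56, adjusted p = 0.0039, and -2.94 without it). Eno1, the glycolytic enolase gene with near-identical copies in the genome, varied from 36.1 to 92.4 RPKM in GPC against 12.02 to 18.9 RPKM in glia, and its value is uncertain.

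Of the 29 astrocyte markers, 5 had a SOX9-only peak, and 3 of these rose, Gfap and Aqp4 among them, while Slc1a3 and Aldh1l1 fell. Such a peak was paired with 3.73% of all symbols of the expression table. Slc1a3, the glutamate transporter GLAST, had peaks 10209 and 70491 bp upstream. It read 293, 306, 297 and 306 RPKM in GPC, against 185, 193 and 168 RPKM in glia, without overlap (log2 change -0.75 ± 0.07, adjusted p = 3.6e-06). Aldh1l1, a folate enzyme gene, had a peak 15530 bp upstream and 230 bp from an NFIA peak. It read 29.5, 30.03, 17.0 and 30.4 RPKM in GPC, against 11.3, 12.9 and 11.9 RPKM in glia, GPC replicate 3 being nearest to glia (log2 change -1.19 ± 0.20, and -1.36 without it). Outside the list, Ndrg2 and Mt3, both abundant in astrocytes, had peaks 1324 bp upstream (chr14:52534187-52534787) and 2102 bp downstream (chr8:96678310-96678910). Ndrg2 read 146, 147, 328 and 158 RPKM in GPC, against 1169, 1128 and 1247 RPKM in glia (log2 change 2.57 ± 0.31, adjusted p = 0.00017, and 2.95 without GPC replicate 3). Mt3, a zinc-binding metallothionein, rose from 309 ± 38.2 to 851 ± 68.6 RPKM (log2 change 1.43 ± 0.10).

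Of 6 markers of oligodendrocyte precursors with a peak 3 were higher and 3 lower, and the whole list of 22 was also split, 12 higher and 10 lower. The summed level of that list was 2309 to 2456 RPKM in GPC and 1568 to 1945 RPKM in glia. None of the 26 markers of maturing oligodendrocytes in the expression table had a SOX9-only peak, beside 3.73% of all its symbols. In a list of this size that absence is near the background. Pdgfra, the receptor for platelet-derived growth factor A, had a peak 71872 bp downstream (chr5:75619889-75620489) and read 22.5, 22.1, 16.2 and 21.9 RPKM in GPC, against 54.1, 57.9 and 48.7 RPKM in glia. The glia libraries of Pdgfra all lay above GPC (log2 change 1.34 ± 0.11, adjusted p = 2.3e-06). Cspg5, a neural proteoglycan gene, rose from 54.6 ± 3.05 to 97.7 ± 9.95 RPKM and Nkx2-2, a homeodomain factor of the lineage, from 19.8 ± 1.48 to 33.4 ± 6.30 RPKM. Ptprz1, a receptor phosphatase gene with 2 overlapping peaks near 80 kb upstream, fell from 167 ± 14.6 to 91.6 ± 14.7 RPKM. Xylt1, which starts glycosaminoglycan chains, fell from 20.8 ± 2.03 to 5.96 ± 0.200 RPKM, and Olig1 fell as given above. Of the progenitor markers, 6 higher and 11 lower of 21 tested in all, Notch1 fell and Vim, the intermediate filament gene with a peak 2320 bp downstream, was not called, at 1258 ± 66.4 RPKM in GPC, against 1324 ± 88.4 RPKM in glia (adjusted p = 0.63).

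Of 19 measured SOX genes 1 had a SOX9-only peak, beside 3.73% of all symbols of the expression table. This was Sox5, a SOX factor without an activation domain, which had its peak 27405 bp downstream and fell from 4.48 ± 0.417 to 3.16 ± 0.349 RPKM (log2 change -0.54 ± 0.11). None of 4 nuclear factor I genes and none of 13 HES, HEY and ID genes had one. Sox9 itself had 1 SOX9 peak that was not a member, as had Nfia, and Sox3 had none. A list of other neural transcription factors held, among others, POU, ZIC, FOX, LIM, PAX, OLIG, NKX, KLF, ETS and bHLH genes. It did not hold every transcription factor. Of its 21 genes with a SOX9-only peak (26 peaks), 5 were higher, 8 lower, 3 not called and 5 not tested. In the whole list 41 were higher and 42 lower of 116 tested. From this list Etv5 and Olig1 fell and Nkx2-2 rose, as given above. Foxb1, a forkhead factor of the embryonic midbrain, hindbrain and spinal cord, fell from 8.56 ± 0.519 to 2.46 ± 0.523 RPKM. Elf5, an ETS factor of epithelia, had 0, 0, 1 and 0 reads in GPC and 46, 9 and 45 reads in glia, too few in GPC for a fold change. Of 21 zinc finger genes of the Zfp, Zbtb and Zfhx series 7 were higher, 4 lower, 6 not called and 4 not tested, beside 139 higher and 73 lower of 375 tested in the whole series. Zbtb16, at the outer distance limit, rose from 0.642 ± 0.100 to 1.63 ± 0.126 RPKM.

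The Notch genes with a SOX9-only peak, Notch1, Notch2 and Maml2, all fell, and of the whole Notch list 7 were higher and 11 lower of 24 tested. Notch1, a receptor that keeps neural cells undifferentiated, had a peak 32005 bp upstream (chr2:26391048-26391648) and 2104 bp from a SOX3 peak, and 2 shared SOX9 peaks besides. It read 47.6, 42.3, 36.1 and 44.9 RPKM in GPC, against 24.6, 27.6 and 24.9 RPKM in glia, without overlap (log2 change -0.77 ± 0.09, adjusted p = 3.6e-05). Maml2, a coactivator of Notch, changed by -0.55 ± 0.11. Notch2 read 12.8, 11.7, 8.20 and 11.7 RPKM in GPC, against 6.95, 9.28 and 6.83 RPKM in glia. The groups of Notch2 overlapped, and its call (log2 change -0.57 ± 0.16, adjusted p = 0.0099) ended without glia replicate 3 (-0.49, adjusted p = 0.0502).

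Among ligands and receptors of other pathways the calls went both ways. Of 7 Wnt pathway genes 3 were higher, 3 lower and 1 not called, beside 25 higher and 15 lower of 56 tested in the whole list. Wnt2b, a ligand, rose from 0.249 ± 0.0473 to 1.21 ± 0.335 RPKM and Dkk3, a secreted Dickkopf protein, from 4.21 ± 0.791 to 9.16 ± 0.140 RPKM, while the ligand Wnt7a fell from 54.2 ± 3.56 to 26.8 ± 0.865 RPKM and the receptor Fzd4 from 8.32 ± 1.03 to 2.81 ± 0.333 RPKM. Of 6 BMP and TGF-beta genes 3 were higher, 1 lower, 1 not called and 1 not tested, beside 26 higher and 10 lower of 55 tested in the whole list. Bmp4, a ligand that favours astrocytes, had a peak 18484 bp upstream and read 1.21, 1.09, 2.04 and 1.34 RPKM in GPC, against 15.1, 9.10 and 15.7 RPKM in glia. The lowest glia library of Bmp4 lay far above the highest GPC library (log2 change 3.16 ± 0.25, adjusted p = 2.5e-06). Smad7, a feedback inhibitor of the pathway, rose from 1.02 ± 0.472 to 3.73 ± 0.696 RPKM and Bmp2k, a BMP-inducible kinase gene, from 3.53 ± 0.715 to 8.14 ± 0.703 RPKM. Ltbp1, which stores latent TGF-beta, read 18.2, 17.0, 4.42 and 16.1 RPKM in GPC, against 4.60, 6.76 and 3.61 RPKM in glia, with GPC replicate 3 among the glia values. Its call (log2 change -1.62 ± 0.48, adjusted p = 0.017) ended without glia replicate 1 (adjusted p = 0.055) or 3 (adjusted p = 0.075), and the change was -1.94 without GPC replicate 3.

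Ptch1, the Hedgehog receptor and a target of the pathway, had overlapping peaks at 10642 and 10838 bp downstream and fell from 35.8 ± 4.55 to 16.2 ± 0.633 RPKM (log2 change -1.18 ± 0.10). The ligand Shh, with a peak 59899 bp upstream, was at most 0.730 RPKM in any library and not called (log2 change 0.50, adjusted p = 0.21), but passed without GPC replicate 3 (0.81, adjusted p = 0.040). Fgf2, the growth factor that the labels also name in the medium, had a peak 2950 bp upstream (chr3:37244326-37244926). Its own transcript read 0.447, 1.70, 0.831 and 0.721 RPKM in GPC, against 3.80, 3.33 and 3.22 RPKM in glia (log2 change 1.85 ± 0.34, adjusted p = 0.00067). Kitl, the ligand of the receptor Kit, fell from 29.5 ± 2.95 to 13.1 ± 2.13 RPKM and the RNA-binding protein gene Igf2bp3 from 30.0 ± 2.41 to 11.4 ± 0.533 RPKM, while Egf was not called. Of the whole growth factor list 29 were higher and 19 lower of 61 tested. Of the feedback inhibitors Spred1, which restrains RAS signalling, fell from 59.6 ± 3.24 to 23.9 ± 1.95 RPKM, the phosphatase gene Dusp14 rose from 5.997 ± 0.297 to 15.7 ± 1.16 RPKM, and Dusp7 was not called.

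Of 7 cadherin and protocadherin genes 5 were lower, 1 was not called, 1 was not tested and none was higher, although over the whole family 49 of 83 tested genes were higher and 19 lower. Cdh2, or N-cadherin, with a peak 95751 bp downstream, fell from 101 ± 10.7 to 51.8 ± 2.04 RPKM and Cdh13, which is anchored by a lipid, from 51.6 ± 6.04 to 28.1 ± 2.02 RPKM. Of 10 immunoglobulin and leucine-rich adhesion genes 6 were higher, 1 lower, 2 not called and 1 not tested, and over the whole family 43 of 78 tested were higher. Cntn1, a contactin, had 2 overlapping peaks at 28141 and 28276 bp upstream and read 34.7, 37.8, 27.8 and 39.8 RPKM in GPC, against 139, 153 and 124 RPKM in glia. The groups of Cntn1 were far apart (log2 change 1.94 ± 0.12, adjusted p = 2.8e-07). Lrrc4, a netrin-G ligand, rose from 6.67 ± 1.82 to 34.0 ± 0.755 RPKM and Kirrel3 fell from 20.5 ± 1.83 to 6.64 ± 0.267 RPKM. Of 5 guidance genes Sema4a, Ntng2 and Efna5 rose and Sema4f and Efnb1 were not called, beside 42 higher and 18 lower of 68 tested in the whole list. Sema4a, a semaphorin, rose from 0.284 ± 0.132 to 3.52 ± 0.476 RPKM, whereas the call of the ephrin Efna5 (log2 change 0.78, adjusted p = 0.016) ended without glia replicate 2 (0.68, adjusted p = 0.055). Of 15 matrix and integrin genes 7 were higher, 4 lower and 4 not called, and the whole family had 93 higher and 43 lower of 168 tested. Thbs2 and Adamtsl1 rose, as given above. Itgav, the integrin alpha V subunit, fell from 34.3 ± 3.42 to 11.5 ± 1.97 RPKM. Adamts3, a procollagen protease gene, fell from 4.61 ± 1.05 to 0.824 ± 0.178 RPKM.

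Of 17 genes with a solute carrier (Slc) symbol, among them Slc9a3r1, which encodes a scaffold protein and no carrier, 11 were higher, 2 lower, 2 not called and 2 not tested, beside 110 higher and 59 lower of 233 tested in the whole family. Among these 17 genes the largest fitted rises were those of Slc44a3 and Slc24a4. Slc44a3, a choline transporter-like gene, went from 0.0550 ± 0.0173 to 2.31 ± 0.373 RPKM. Slc24a4, an exchanger of sodium, calcium and potassium, went from 0.185 ± 0.106 to 3.81 ± 0.324 RPKM. Slc44a3 had 2, 1, 4 and 2 reads in the GPC libraries and passed the filter on low counts through glia alone. Its level in GPC, its change and its rank are therefore uncertain. Of 14 ion channel genes 1 was higher, 5 lower, 4 not called and 4 not tested, beside 59 higher and 29 lower of 115 tested in the whole family. Kcna6, a voltage-gated potassium channel gene, was the one that rose, from 2.16 ± 0.257 to 19.4 ± 0.561 RPKM (log2 change 3.14 ± 0.09), with a peak 5235 bp upstream. Kcng1, a modifying potassium channel subunit, fell from 3.60 ± 0.365 to 0.183 ± 0.0502 RPKM. Of the glutamate receptor genes Grik4, a kainate receptor subunit with 2 peaks, rose from 5.22 ± 1.06 to 14.7 ± 0.610 RPKM, and Grin2a and Grin2b had too few reads for a test. These family counts are descriptions, and none was compared with its whole family by a test.

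Among the most abundant genes with a SOX9-only peak, Dbi, which encodes the acyl-CoA binding protein, had 2 peaks about 5 kb downstream (the nearest at 5023 bp) and rose from 1260.3 ± 23.3 to 3319 ± 137 RPKM. The ribosomal protein gene Rplp1, which has near-identical copies that may share its reads, stood at 3454 ± 296 RPKM in GPC, against 1666 ± 274 RPKM in glia. Ndfip1, an adaptor of ubiquitin ligases, fell from 356 ± 26.5 to 249 ± 14.3 RPKM and Plekhb1 was not called, at 334 ± 32.3 and 346 ± 25.6 RPKM. Of markers of other cell types with such a peak, the neurofilament gene Nefl rose from 1.70 ± 0.283 to 3.00 ± 0.337 RPKM, Elavl4 and Stmn2 were not called, and the mesenchyme factor Twist1 rose from 3.24 ± 0.337 to 7.48 ± 0.718 RPKM. Stmn2 passed without GPC replicate 3 (log2 change -1.15, adjusted p = 0.0023). The endothelial gene Cdh5 was at most 0.211 RPKM in any library and was not tested.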

How the data were processed

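The SOX9, SOX3 and NFIA peak lists and the table of 4 GPC and 3 glia RNA libraries were used as deposited by the authors. The genome build was mm9 and the peak callers were MACS and MACS2, as the submitters' processing notes list them. How reads were aligned and counted, whether strand was used and how genes were assigned to peaks were not given in the sources used here. Overlapping or antisense genes and near-identical copies can therefore share reads. Read counts per gene were deposited by the authors without normalization. RPKM values, scaled by the authors to gene model length and library reads per the file headers, served for levels only. The NFIA list carries a score deposited by the authors, which was not used. Mapped column names matched the labels of every library. Input (2 samples) and H3K27ac (3 samples) were not analysed here.

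A peak was a member if its absolute distance was above 1000 and at most 100000 bp and it shared no base with a SOX3 or NFIA peak. The sign of the distance, negative upstream, matched the RefSeq strand for 328 of 329 genes that could be checked. Gene symbols were matched directly or through RefSeq synonyms (GRCm38.p6, for names and promoters only). Testing used edgeR 4.0.16 in R 4.3.3 (TMM, default filterByExpr, robust glmQLFit and glmQLFTest), glia against GPC over all 13588 genes that passed, two-sided, with Benjamini-Hochberg adjustment and a threshold of 0.05. The SE of a log2 change is its size over the square root of F. The code was tested on simulated data. Each library's depth is given with the results. The precision of a low value is limited by counting error.

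The members, gene families and marker lists were chosen with earlier results of these data known. Genes named are Sox3, Sox9 and Nfia, the 12 with the most peaks, the 12 largest rises and 12 largest falls among called genes with separate groups and at least 5 RPKM in 1 group, the 6 with the highest level in each group, the genes next to each limit, and members of the listed families (for large families the 2 largest changes each way). A few genes that these rules name are not reported here. A few other genes of these families were named after their values were seen. Alternatives were another normalization, DESeq2 1.42.0, other count filters, a replicate block, leaving out each library, and other rules of overlap, distance and symbol matching.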

Additional observations from a re-analysis of the deposited data

Results flagged for a closer look

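In the 4 GPC libraries 1 value lay far from the other 3 for 19 of the 95 named genes, by Dixon's test at the 95% level, which chance passes in about 1 of 20 groups. In 16 of these genes the distant library was GPC replicate 3. It was the highest for Gfap (15.4 RPKM, the others at most 6.52 RPKM), Ndrg2 (327.6 against at most 158 RPKM), Aldh1a1 (12.7 against at most 2.25 RPKM), Meig1 (1.32 against at most 0.487 RPKM), Lrrc4 (9.40 against at most 5.92 RPKM), Ntng2 (13.9 against at most 9.89 RPKM) and Grik4 (6.80 against at most 4.80 RPKM). The same held for the factors Sox3 (121.9 RPKM), Sox9 (62.7 RPKM) and Nfia (15.8 RPKM), and for Elf5 (0.0212 RPKM, with no read in the others). For Elf5 this was 1 read, and any single read beside libraries without reads passes this test, so it carries no information. It was the lowest for Aldh1l1 (17.0 RPKM, the others at least 29.5 RPKM), Crispld2 (2.09 against at least 8.87 RPKM), Ltbp1 (4.42 against at least 16.1 RPKM), Fzd4 (6.78 against at least 8.73 RPKM) and Pdgfra (16.2 against at least 21.9 RPKM). The distant library was GPC replicate 1 for Abcb4 (1.31 RPKM, the others at most 0.823 RPKM) and GPC replicate 4 for Cacng8 (19.98 against at most 16.3 RPKM) and Kcna6 (2.55 against at most 2.05 RPKM). The cause was not tested.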

How the results depend on the processing

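The number of SOX9-only peaks was 1022 with no SOX3 or NFIA peak allowed within 500 bp, 1065 where a shared peak had to cover 50% of the shorter one, 752 up to 50000 bp and 957 above 5000 bp. Leaving out 1 library at a time gave 237 to 286 genes higher and 221 to 268 lower, with a median log2 change of 0.008 to 0.036. The median was -0.004 for peaks up to 50000 bp. The median GPC level was 6.88 RPKM with the 500 bp rule, 7.14 RPKM with the cover rule, 7.13 RPKM up to 50000 bp and 7.43 RPKM with direct symbol matches, and with direct matches the glia level was 8.77 RPKM. Of 1132 refits of the 95 named genes 1112 kept direction and call. The change of direction concerned genes that were not called: without 1 library the log2 change of Efnb1 ranged from -0.0585 to 0.186, that of Plekhb1 from -0.0758 to 0.0475 and that of Vim from -0.0104 to 0.0725, and Plekhb1 was at 0.0307 with at least 50 counts in 3 libraries and at 0.0253 with the replicate block. Arhgef10l passed with at least 50 counts in 3 libraries (0.21, adjusted p = 0.049).

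Deviations of libraries with the same number were weakly correlated (-0.02, 0.14 and 0.07 for numbers 1 to 3), against -0.16 to 0.09 for different numbers. With so few libraries this cannot exclude pairs, and the numbers were not taken as pairs in the main test. With the replicate block 250 genes were higher and 232 lower and the median was 0.037. In alternatives chosen after seeing the data, overlapping peaks merged into 987 loci, and genes with SOX9-only peaks of this range alone and no SOX3 peak gave 204 higher and 191 lower. No setting measures binding in single ChIP samples, and the depth behind the peaks is unknown here.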
